A study of Mus musculus with 6 samples.

Results

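The miRNA described here is miR-34a, taken as every probe whose gene name in the scanner files is mmu-miR-34a, on all 6 arrays. It is 1 of 567 mouse miRNAs on the array and has 2 probes with 20 spots in all per array, out of 1672 probes and 11340 spots. The 6 samples were Fr. B/C cells, Hardy's fractions for pro-B cells, sorted from BALB/c mice. The labels name no engineered allele and no drug for either group. The bone marrow group had 3 sorts, each pooled from 3 adult female mice, and the fetal liver group had 3 sorts, each pooled from the embryos of 1 mouse at day 16 of gestation, 8 embryos on average. Tissue, developmental stage and pooling therefore differ together and cannot be told apart. The study concerns Lin28b in fetal B cell formation, and here fetal and adult pro-B cells are compared for a miRNA outside the let-7 family that Lin28b acts on directly.

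A miRNA is cut from a hairpin precursor, loaded into an Argonaute protein and directed to messenger RNAs that pair with its seed, the bases near its 5′ end, which lowers their translation and stability. The gene of miR-34a is induced directly by p53, and the miRNA represses cell cycle and survival genes such as Cdk6 and Bcl2. In mouse bone marrow, forced expression of miR-34a holds B cell development at the step from pro-B to pre-B cell, and Foxp1, a transcription factor needed at that step, is a known target.

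The mature strand and the other mouse mature miRNAs of the RefSeq table (GRCm38.p6) with the same seed are printed first, since these are the sequences that decide which messages pair with it. Capitals mark bases 2 to 8, the seed.
mmu-miR-34a-5p: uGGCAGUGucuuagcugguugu
mmu-miR-34b-5p: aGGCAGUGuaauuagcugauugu
mmu-miR-449a-5p: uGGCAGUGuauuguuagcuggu
mmu-miR-449c-5p: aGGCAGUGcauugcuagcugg
Of the 1738 mature sequences in the table, which does not list every miRNA, 4 carry this seed, and miR-34c-5p, miR-449b and miR-699 were not compared. Outside the seed they part: set base against base from the 5′ end, miR-34b-5p has the same letter as miR-34a-5p at 11 of 22 positions, miR-449a-5p at 15 of 22 and miR-449c-5p at 12 of 21. The array name miR-34a stands for the arm on the 5′ side of the hairpin, which is shown with that arm in capitals.
Mir34a hairpin: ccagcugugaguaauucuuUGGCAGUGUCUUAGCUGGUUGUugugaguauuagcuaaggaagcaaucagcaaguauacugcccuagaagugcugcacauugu
This hairpin lies on the plus strand at chr4:150068454-150068555 (GRCm38.p6). It is 102 bases long, and the mature strand spans its bases 20 to 41, at chr4:150068473-150068494. The hairpin overlaps 0 other annotated genes. Its nearest neighbours in the table are the lncRNA Gm13067, 9737 bases to the left, and the protein-coding gene Gpr157, 18948 bases to the right. The genes of miR-34b and miR-34c lie elsewhere, on chromosome 9, 452 bases apart and within the annotated spans of Btg4 and Hoatz. Per the file headers, both miR-34a probes are placed in an older build, mm9, on chromosome 4. Probe A_54_P2499 covers positions 149442584 to 149442603 (20 bases) and probe A_54_P2498 covers 149442585 to 149442603 (19 bases), so they share their target and are not independent measurements.

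The arrays all came from 1 slide and 1 scan, but every bone marrow array had position index 1 on the slide and every fetal liver array index 2, so position and tissue cannot be told apart. The share of mouse spots well above background was 7.02 percent on fetal liver replicate 2 and 18.4 to 23.7 percent elsewhere. On that array the lowest signal well above background was 58.7, compared with 12.9 to 15.0 on the others. Its median mouse spot signal before scaling was -9.42, compared with 0.83 to 1.69 on the others. The SD of its negative control spots was 12.1, compared with 2.65 to 4.13. Signals were scaled by factors from 0.614 to 1.81 before levels were compared, and levels are given as log2 of scaled signal with a common floor of 4.04. As nothing in the labels ties sorts to separate experiments beyond their being separate sorts, p-values measure the spread between these sorts.

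miR-34a was lower in fetal liver pro-B cells than in adult bone marrow pro-B cells. With probe A_54_P2499, the one with the higher mean log2 signal and so the one that stands for the miRNA, the level was 9.18, 9.27 and 9.20 on bone marrow replicates 1, 2 and 3. It was 8.36, 7.13 and 7.17 on fetal liver replicates 1, 2 and 3. All 3 fetal arrays lay below all 3 bone marrow arrays, with a gap of 0.82 between the nearest arrays. In unlogged scaled signal the bone marrow arrays had 581, 616 and 586, and the fetal arrays 329, 140 and 144. The group means were 9.21 ± 0.04 (SD, n = 3) and 7.55 ± 0.70 (SD, n = 3), a difference of -1.66 ± 0.36 (SE) with a 95% interval from -2.52 to -0.80, or 3.16-fold lower in fetal liver (interval 1.74 to 5.74). The limma test, adjusted with Benjamini-Hochberg over 135 tested miRNAs, gave an adjusted p of 0.0170. In that test 29 miRNAs passed, which is 21.5 percent of those tested, and 15 of them were lower in fetal liver (11.1 percent) and 14 higher (10.4 percent). A two-sided exact permutation test of the group means gave p = 0.1, the smallest that 3 arrays against 3 can give. Groups that did not overlap, with fetal liver lower, were found for 25 of the 135 (18.5 percent). All 135 were well above background on all 3 bone marrow arrays, so these shares describe miRNAs detected in bone marrow. When only the 52 miRNAs well above background on all 6 arrays were tested, 19 passed (36.5 percent). Of these 19, 5 were lower, miR-34a among them (limma adjusted p = 0.00927), and 14 were higher.

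**Figure D1:**
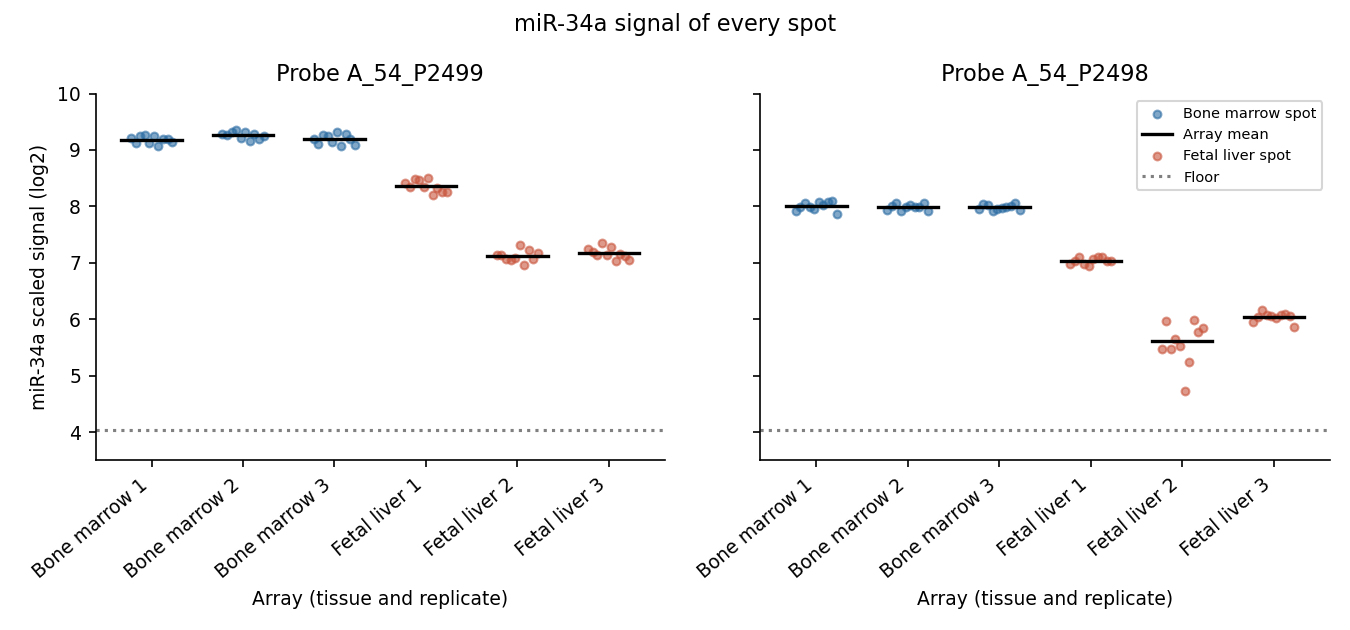
Every miR-34a spot on each of the 6 arrays (horizontal axis, tissue and replicate) as log2 scaled signal (vertical axis), with 1 panel per probe, black bars for array means and a dotted line for the floor. Bone marrow array means of probe A_54_P2499 lie within 0.0833 of each other, and fetal liver replicate 1 lies between them and the other two fetal arrays.

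The 2 groups differed in their spread as well as in their level. The plot of spots by array shows the bone marrow arrays within 0.0833 of each other, while the fetal arrays spanned 1.23. Among 135 tested miRNAs, 8 had a smaller bone marrow SD than miR-34a (5.93 percent) and 44 had a larger fetal SD (32.6 percent). The median SD of all tested miRNAs was 0.161 over the bone marrow arrays and 0.488 over the fetal arrays. Of the fetal arrays, replicate 1 was 1.81-fold below the bone marrow mean, replicate 2 was 4.25-fold below and replicate 3 was 4.12-fold below. Of the 14 other miRNAs called lower, 3 were well above background on all fetal arrays, and replicate 1 was the highest fetal array for 2 of these 3. Over all 135 tested miRNAs it was the highest for 57, with ties at the floor counted for replicate 1. So few miRNAs cannot be told from that share. Replicates 2 and 3 lay close to each other for miR-34a, although they differed widely in signal over background. The 4.25-fold was not corrected for the negative median spot signal of replicate 2, so its size and this closeness are uncertain.

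The call was lost in 4 of 6 fits that left out 1 sort, among them every fit that left out a bone marrow sort. With scaling recomputed from the arrays that remained, the difference stayed between -2.06 and -1.50, but the adjusted p was 0.0648, 0.0709 and 0.0839 without bone marrow replicate 1, 2 or 3, and 0.0610 without fetal liver replicate 2. Without fetal liver replicate 1 it was 0.00238 and without replicate 3 it was 0.0306. Testing all 567 miRNAs rather than only those detected gave an adjusted p of 0.0918 at the same difference.

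**Figure D2:**
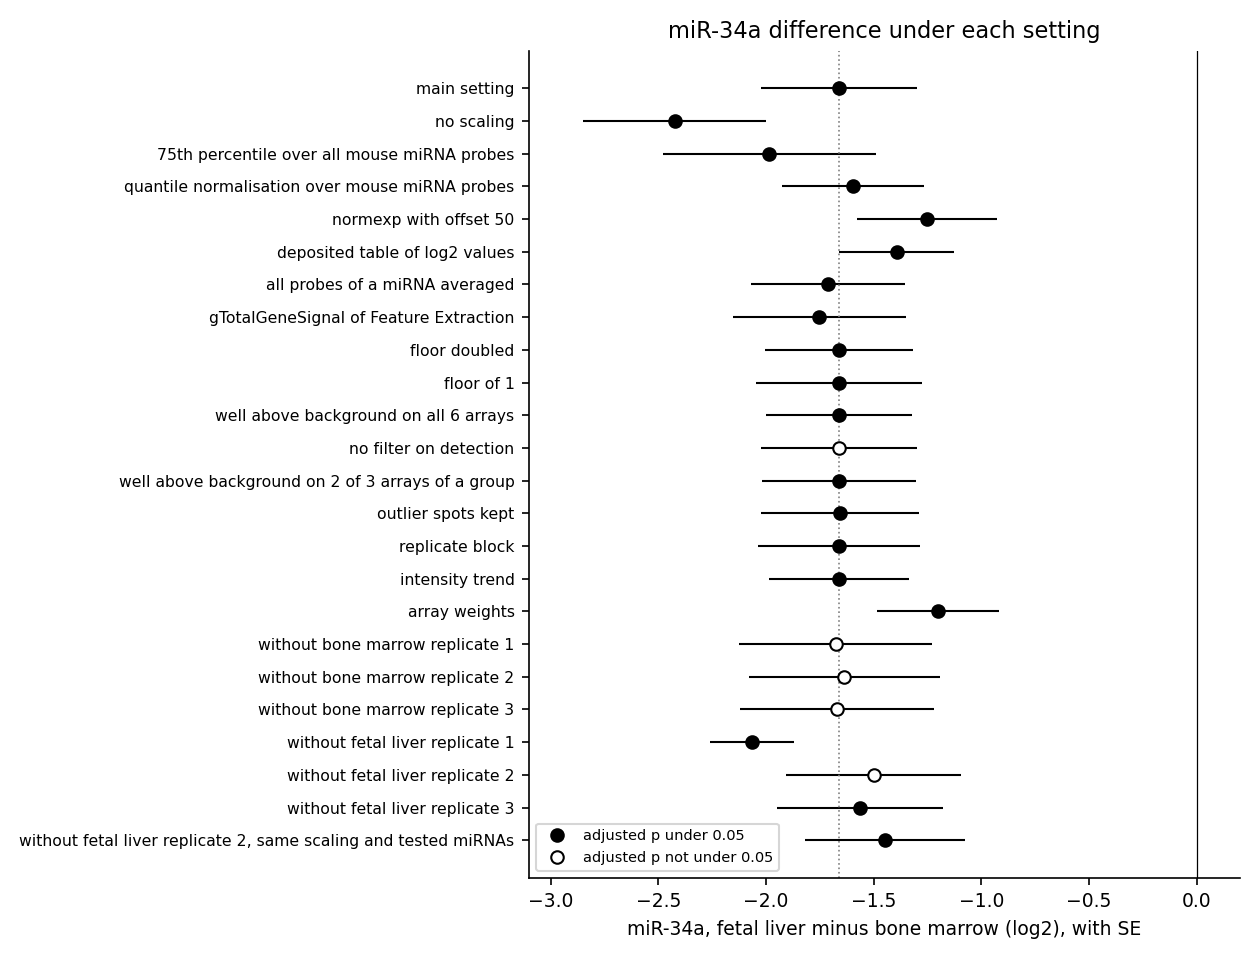
The log2 difference of miR-34a between tissues, negative where fetal liver is lower (horizontal axis, point with SE), under each processing setting (vertical axis), with filled points where the adjusted p was under 0.05. Every point lies below 0, from -2.42 without scaling to -1.20 with array weights.

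Both probes gave the fall, A_54_P2498 on fetal liver replicates 1 and 3, where it was detected. All 10 spots of probe A_54_P2499 were well above background on every array, with 0 saturated or outlier spots, and its spots spread by an SD of 0.0628 to 0.106 within an array. On fetal liver replicate 2 its signal of 77.2 before scaling was 1.32 times the lowest signal well above background there, against 10.6 to 75.9 times on the other arrays. Probe A_54_P2498 had log2 levels of 8.01, 7.99 and 7.99 on the bone marrow arrays and 7.04, 5.61 and 6.05 on the fetal arrays. Its spots were 10 of 10 well above background on 5 arrays and 0 of 10 on fetal liver replicate 2, where its value is therefore not a measured level. Across 253 tested probes, of which 49 passed (19.4 percent) and 27 were lower (10.7 percent), A_54_P2498 differed by -1.76 ± 0.38 (SE; limma adjusted p = 0.0199) and A_54_P2499 by -1.66 ± 0.37 (SE; limma adjusted p = 0.0221). The size, SE and p of A_54_P2498 rest partly on fetal liver replicate 2, where its value is not a measured level. Without that array, A_54_P2498 was at -1.51 (limma adjusted p = 0.0445) and A_54_P2499 at -1.50 (limma adjusted p = 0.0715). The gap between the probes was 1.17, 1.28 and 1.21 on the bone marrow arrays. It was 1.32 and 1.13 on fetal liver replicates 1 and 3. On replicate 2, where A_54_P2498 was not detected, no gap could be measured. Feature Extraction's own total signal for miR-34a, before scaling, was 651, 1031 and 563 on the bone marrow arrays and 207, 69.1 and 146 on the fetal arrays. Its stated error was 17.9 percent on fetal liver replicate 2 and 7.60 to 7.82 percent on the other arrays. The software marked miR-34a as detected on all 6 arrays. In the authors' deposited table, probe A_54_P2499 stood at 9.24, 9.38 and 9.24 on the bone marrow arrays and at 8.51, 7.54 and 7.63 on the fetal arrays, again with no overlap.

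Of the 135 tested miRNAs, 52 were lower and 83 higher in fetal liver, and their median difference was 0.25. Relative to that median miR-34a lay at -1.91, and at -1.92 to -1.41 under 4 other scalings, which shifted the median itself by -0.75 to -0.22. Of 88 tested miRNAs that were above the floor on all 6 arrays, 4 had a larger fall: let-7c, let-7i, let-7d and miR-223. The first 3 belong to the family whose maturation Lin28b blocks, and miR-223 is a myeloid miRNA. let-7d was 6.72-fold lower and well above background on all 3 fetal arrays. The measured folds of let-7c (10.2), let-7i (7.73) and miR-223 (4.01) are not exact, as 1 of the 3 fetal arrays was not well above background for each. Outside these 88, let-7b (-4.11), miR-146a (-3.64) and miR-125b-5p (-1.81) also fell by more than miR-34a. Each had 2 fetal arrays at the floor, so these differences are not exact either.

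**Figure D3:**
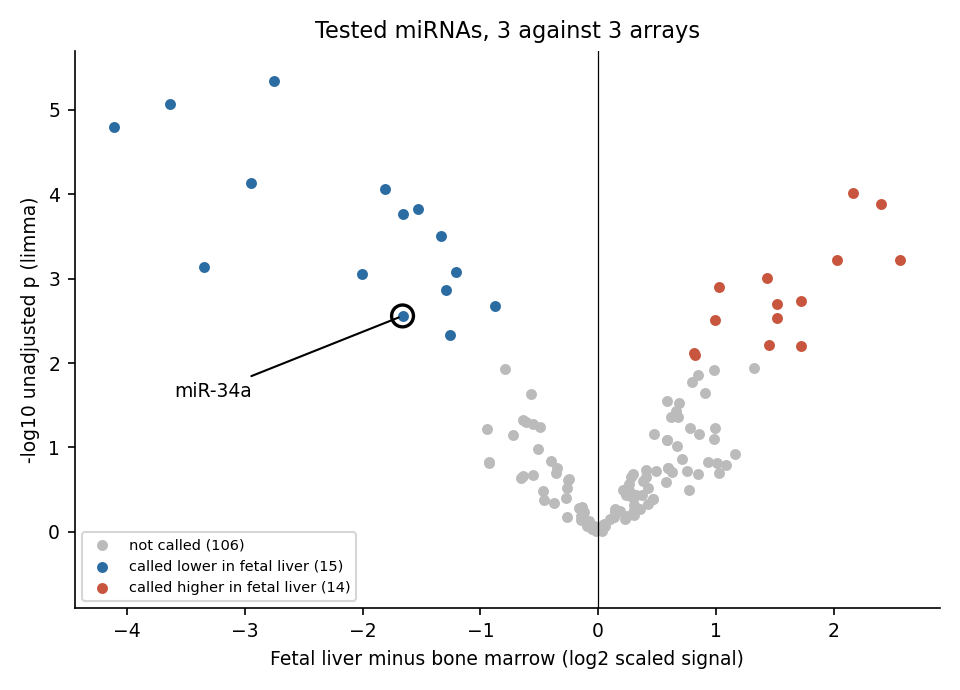
Each of 135 tested miRNAs by its difference, fetal liver minus bone marrow in log2 scaled signal (horizontal axis), and by -log10 of the unadjusted limma p (vertical axis), with miR-34a circled. miR-34a is among 15 called lower, and 14 were called higher.

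The miRNAs most like miR-34a were chosen by the smallest root mean square difference between deviations from each miRNA's own mean over the 6 arrays. They were miR-125b-5p (0.342), miR-98 (0.344) and miR-181a (0.345). The order among them has no meaning, since the floor sets the fetal values of the first pair: the miR-125b-5p difference was -0.90 with the floor doubled and -2.87 with a floor of 1. miR-125b-5p, which is high in stem and progenitor cells, was 5.76, 5.90 and 6.18 on the bone marrow arrays. It was well above background on 0 fetal arrays, so only a rough bound can be given. With 4.94 taken as the upper limit of the fetal mean, it was 2.00-fold lower or more. Whether the undetected signals all lay below such a limit was not tested. miR-125b-5p was tested only because of its bone marrow arrays. Its group means as computed were 5.94 and 4.14, and its adjusted p (limma, 0.00216) rests on fetal values that are not measured levels. miR-98, a let-7 family member, was well above background on 1 fetal array, and 1 fetal array lay at the floor, so its difference of -1.53 is not exact. miR-181a, which promotes lymphoid development, was 7.42, 8.02 and 8.02 on the bone marrow arrays and 7.01, 6.51 and 6.18 on the fetal arrays. It fell by 1.25 (SE 0.30, limma adjusted p = 0.0252) and kept its call in 3 of 6 fits that left out 1 array. miR-181a was well above background on 2 of 3 fetal arrays. On fetal liver replicate 2 it was not, so its 6.51 there is not a measured level, and the difference and p rest partly on it. Like miR-125b-5p, both miR-98 and miR-181a were tested only because of their bone marrow arrays.

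Of the relatives, only miR-34b-3p among the miR-34b and miR-34c names was seen above background. The 4 names hold 8 probes. miR-34b-5p, miR-34c and miR-34c* had 0 percent of spots well above background on every array. miR-34b-3p, the opposite arm of miR-34b with its own seed, had 100, 100 and 45 percent of its spots well above background on the bone marrow arrays and 100, 0 and 0 percent on the fetal arrays. Fetal liver replicate 1 was thus as fully detected as bone marrow replicates 1 and 2. Its sequence is shown beside the matching arms of miR-34a and miR-34c, with capitals for bases 2 to 8.
mmu-miR-34a-3p: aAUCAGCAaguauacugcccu
mmu-miR-34b-3p: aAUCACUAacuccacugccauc
mmu-miR-34c-3p: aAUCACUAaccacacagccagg
miR-34b-3p and miR-34c-3p share these 7 bases, and miR-34a-3p does not. Among the miR-449 and miR-699 names, miR-449b and miR-449c had 0 percent on every array, miR-449a had 10 percent on bone marrow replicate 1 alone and miR-699 had 5 percent on fetal liver replicate 1 alone. The 5′ arms with the miR-34a seed, other than miR-34a itself, were thus not well above background at the sensitivity of these arrays, which for fetal liver replicate 2 was lower than for the others.

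**Figure D4:**
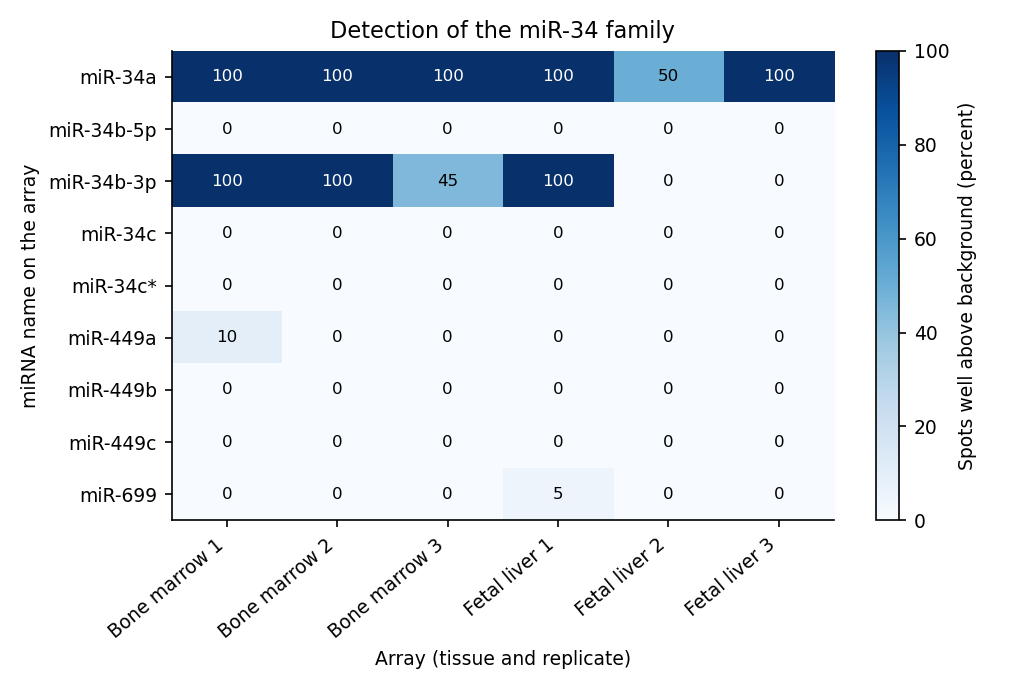
Percent of spots well above background (colour and number) for miR-34a and 8 related names (vertical axis) on each of the 6 arrays (horizontal axis). miR-34a is at 100 percent on 5 arrays and 50 on fetal liver replicate 2, where 1 of its probes was not detected.

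miR-34a was set beside other miRNAs that respond to p53 and others that act in B cell development. Of 15 p53-responsive names on the array, 10 were well above background on no array and 5 were tested. Of these 5, 1 was called lower (miR-34a), 1 was called higher and 3 did not pass, set against 21.5 percent called of all tested miRNAs. The one called higher was miR-107, which slows the cell cycle, at 0.82 ± 0.22 (SE; limma adjusted p = 0.0362). That call was kept in 1 of 6 fits that left out 1 array, and without scaling the difference was 0.05. Those that did not pass were miR-15a (-0.40 ± 0.24 SE) and miR-16 (-0.04 ± 0.19 SE), which repress Bcl2, and miR-34b-3p (0.93 ± 0.57 SE). miR-34b-3p lay at the floor on 3 arrays. Its highest value, 6.01, was on fetal liver replicate 2, where 0 percent of its spots were well above background. The miR-34b-3p difference thus rests partly on a value that is not a measured level. The median of the 5, with miR-34a among them, was -0.04, against 0.25 for all tested. Apart from miR-34a, miR-15a and miR-16 lay below 0.25, and miR-107 and miR-34b-3p above it.

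Of 17 miRNAs listed for B cell development, 15 were tested. Of these, 2 were called lower (miR-34a and miR-181a), 1 was called higher and 12 did not pass, so 3 of 15 were called, set against 21.5 percent of all tested miRNAs. The one called higher was miR-18a, a member of the miR-17 to miR-92a cluster that supports survival at the pro-B to pre-B step, at 1.73 ± 0.35 (SE; limma adjusted p = 0.0130). It was called in 4 of 6 fits that left out 1 array, and without scaling its difference was 0.96 (limma adjusted p = 0.189). Its cluster partners miR-20a, miR-92a and miR-19a did not pass, at 0.80 ± 0.25, 0.47 ± 0.22 and 0.86 ± 0.40 (SE), and miR-92a was at -0.29 without scaling. The median of the 15, with miR-34a among them, was 0.24, against 0.25 for all tested.

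**Figure D5:**
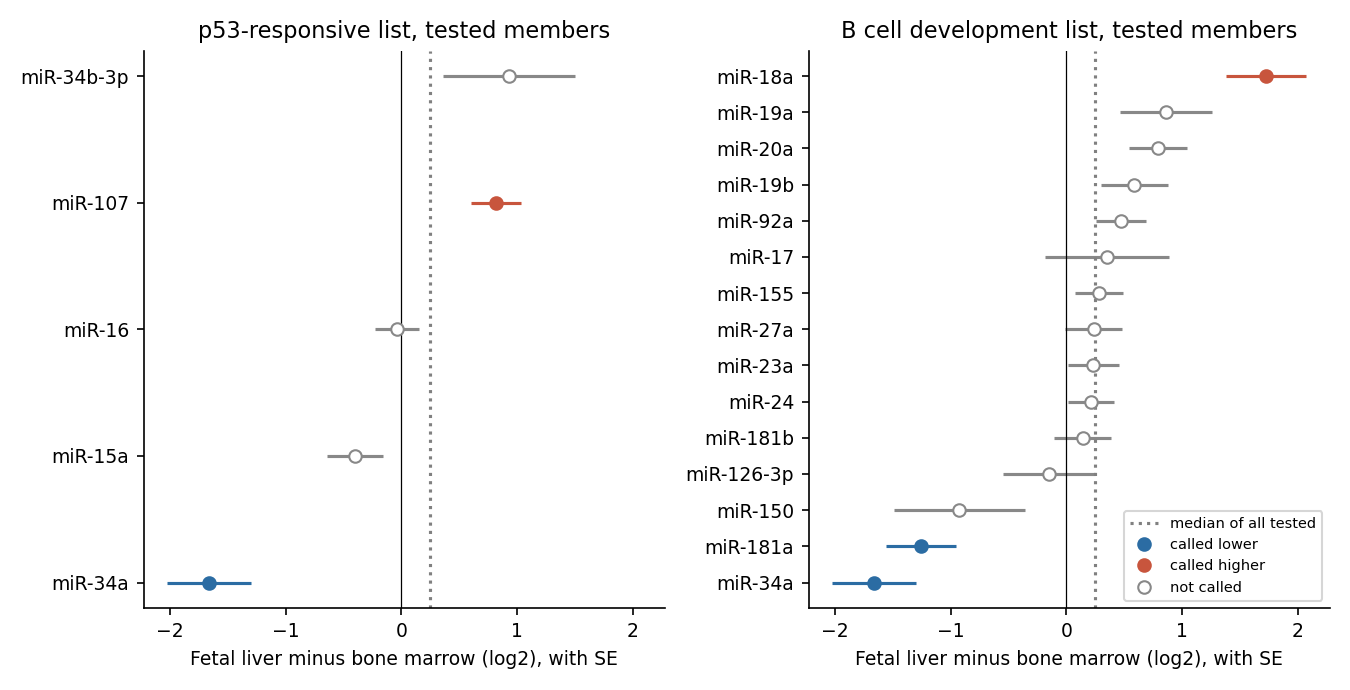
Tested members of the p53-responsive list (left, 5 miRNAs) and the B cell development list (right, 15 miRNAs) by difference, fetal liver minus bone marrow in log2 with SE (horizontal axis), with filled points for calls and a dotted line at the median of all tested. miR-34a is the lowest point of both panels.

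Markers of other cells moved with tissue too, and their part in the miR-34a difference was not tested. The summed scaled signal of 3 erythroid miRNAs was 99.6 to 168 on the bone marrow arrays and 513 to 772 on the fetal arrays, with miR-144 well above background on no array. The sum of 4 myeloid miRNAs was 399 to 734 on the bone marrow arrays and 70.4 to 157 on the fetal arrays. On fetal liver replicate 2, 0 of these 4 were well above background, and miR-146b was so on no array. Myeloid miR-511 had a scaled signal of 8.0 to 13.8 on the bone marrow arrays. It had 24.6, 70.4 and 3.4 on fetal liver replicates 1, 2 and 3, well above background on replicate 1 alone of these. Within fetal liver, miR-451, which is made in red cell precursors, was 8.81, 9.15 and 9.53 on replicates 1, 2 and 3, where miR-34a stood at 8.36, 7.13 and 7.17. The myeloid miR-223 was 6.78, 5.86 and 6.07 on the same arrays, and miR-146a was 4.47 on replicate 1 and at the floor on replicates 2 and 3. Hepatocyte miR-122 was well above background on fetal liver replicate 1 alone, with a scaled signal of 31.7, and that array also had the highest fetal miR-34a. The other hepatocyte miRNAs on the array, miR-192 and miR-194, were well above background on no array. The sum of 6 B and lymphoid miRNAs ran from 952 to 1312 over the bone marrow arrays and from 960 to 1388 over the fetal arrays. Much of it was miR-142-3p, found across blood cells, at 327 to 705 on the bone marrow arrays and 494 to 948 on the fetal arrays. On fetal liver replicate 2, 3 of the 6 were well above background, and miR-181a was the one member called, lower in fetal liver. The sum of 4 stem or progenitor miRNAs ran from 155 to 166 over the bone marrow arrays and from 65.8 to 194 over the fetal arrays. miR-125b-5p and miR-99a were well above background on no fetal array, while miR-130a, which did not pass the test, had a scaled signal of 33.3 to 46.7 on the bone marrow arrays and 121, 54.8 and 137 on the fetal arrays. On fetal liver replicate 2, the lowest sum, 0 of the 4 were well above background. Stromal miRNAs, 3 on the array, were well above background on no array. Fewer cells that hold miR-34a and less miR-34a per cell cannot be told apart in bulk RNA.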

How the data were processed

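Fr. B/C cells were profiled on 6 one-colour Agilent miRNA arrays, 3 per tissue. Per the labels' protocols, 100 ng of TRIzol-isolated RNA was end-labelled with Cy3. Per the file headers, Feature Extraction 9.5.3.1 wrote the deposited spot intensity, background-subtracted within each array and not normalised between arrays. The authors' deposited log2 table, whose 6 columns share 1 distribution with a median of 5.24, served as an alternative. How its background was corrected is not stated.

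Spots were averaged without outliers. A probe was well above background if over 50 percent of its spots passed. Signals were divided by the array's 75th percentile across the 82 probes above background on all arrays, floored at 16.5 and put on the log2 scale. The probe with the highest mean stood for a miRNA. Tested were 135 miRNAs above background on all 3 arrays of a group, in limma 3.58.1 (R 4.3.3; lmFit, eBayes, Benjamini-Hochberg), called at an adjusted p under 0.05. All 135 met this filter in bone marrow. The fit was tested on simulated data that gave each miRNA the same SD in both groups. For miR-34a the SD was 0.04 over the bone marrow arrays and 0.70 over the fetal arrays. The simulation therefore cannot show how well the SE, interval and p hold for miR-34a. The number of arrays limits the precision. Figures used matplotlib 3.10.9.

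Members, lists and alternatives were chosen with earlier results of these data known. Named were miR-34a, its relatives for detection, the 3 miRNAs most like it, and, per list, the called members and up to 3 others by p. The 4 larger falls, let-7b, miR-451, miR-223, miR-146a, miR-146b, miR-511, miR-122, miR-192, miR-194, miR-142-3p, miR-99a and miR-130a were named after their values were seen.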

Additional observations from a re-analysis of the deposited data

How the results depend on the processing

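Across 16 processing alternatives other than leaving out an array, the miR-34a difference ran from -2.42 to -1.20 and was called in 15. It was -1.66 (limma adjusted p = 0.0918) with no filter on detection, where more miRNAs were tested, and near the threshold at -1.25 with normexp (limma adjusted p = 0.0498). Leaving out 1 array gave -2.06 to -1.50. Without fetal liver replicate 2 but with the scaling of all arrays, a setting chosen after seeing the data, it was -1.45 (limma adjusted p = 0.0486). Calls over all tested miRNAs, 29 in the reported fit, were 10 with normexp, 19 with the filter at all 6 arrays and 15 to 41 without 1 array (15 without bone marrow replicate 2 or 3, 19 without replicate 1). Lower against higher calls were 15 to 14 as reported, and 20 to 4 without scaling, 15 to 6 with the percentile over all probes, 17 to 9 with quantile normalisation, 18 to 11 with the deposited table, 17 to 22 with array weights, 5 to 14 with the filter at all 6 arrays (52 tested) and 16 to 25 without fetal liver replicate 3. Those scalings moved the median of all tested miRNAs, by -0.75 without scaling. Probe A_54_P2498 was at -0.93 with normexp and -1.76 without the filter, not called in either, and -2.17 to -1.51 without 1 array. Probe A_54_P2499 was at -1.25 and -1.66 there, not called, and -2.06 to -1.50 without 1 array. In the fits without 1 array, A_54_P2498 lost its call in 3 of 6 (limma adjusted p up to 0.105). A_54_P2499 lost its call in 4 of 6 (limma adjusted p up to 0.107). A_54_P2498 was not tested with the filter at all 6 arrays. The fetal minus bone marrow difference in the gap between probes (0.10, exact permutation p = 0.6) includes fetal liver replicate 2, where A_54_P2498 was not detected, so it bears on nothing. It turned to -0.32 with normexp and -0.0499 with the deposited table, and was 0.0045 to 0.20 without 1 array. The cause of these changes was not tested. Deviations of same-numbered sorts had r = 0.17, -0.12 and -0.24 over 135 miRNAs, and those of differently numbered sorts had -0.33 to 0.32. So few sorts cannot decide whether the numbers pair them. With the replicate block miR-34a was at -1.66 ± 0.38 (SE, limma adjusted p = 0.0235) and 23 miRNAs were called. Signal over background limits fetal liver replicate 2 most.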
